A study of Rattus norvegicus with 18 samples.

Results

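The hippocampal formation of rats allowed 6 h of recovery sleep was compared with that of rats kept without paradoxical sleep until the end, which asks what recovery sleep reverses and what it adds. Paradoxical sleep is rapid eye movement sleep. It was prevented in male Sprague Dawley rats with the flowerpot method, in which the loss of muscle tone of this sleep state wakes a rat that rests on a small platform above water, and the series design calls the procedure the multiple platform method. Deprived rats spent 78 h under this procedure. By the sample labels recovery rats spent 72 h under it and then had 6 h in which sleep was permitted, although the treatment text can also be read as 6 h after 78 h. Control rats stayed in the home cage. All rats carried electrodes for sleep recording and were killed at 16 h on the clock, and the right hippocampal formation and the right neocortex were dissected. How much each group slept was not analysed here.

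Each pool held equal masses of total RNA from 6 rats, and each state had 2 sets of 6 rats, so 12 rats and n = 2 pools. The comparison rests on 6 of the 18 arrays of the series, 3 from recovery and 3 from deprived hippocampal formation, chosen by the sample titles. In each state set 1 was pooled independently on 2 arrays, which the sample titles name technical replicates. They were averaged on the log2 scale and counted as 1 pool, and set 2 was measured on 1 array. The other arrays used beside them are 3 of home cage hippocampal formation and 9 of neocortex, from the same rats. Values are probe set signals, the brightness of the group of probes that reports 1 transcript, and a difference of 1 on the log2 scale is a doubling. The number of arrays limits the precision, and an average over 6 rats hides the spread between animals.

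The hippocampal formation receives sensory and spatial input from the cortex and is needed to form memories, and paradoxical sleep is the state in which its theta rhythm is most regular. Neurons that fire strongly switch on activity-regulated genes within minutes to hours: transcription factors such as Fos, Egr1 and Nr4a1 first, then effectors such as Arc at the synapse and the neurotrophin Bdnf. Sleep deprivation also raises corticosterone in rats, the adrenal glucocorticoid, which acts through receptors that are abundant in the hippocampus.

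The tissue labels were checked on 4 lists of neuron markers. Among 16 measured markers of hippocampal neurons 15 had more signal there than in the neocortex, with a median log2 difference of 0.98, and 1 of 11 striatal markers was higher, with a median of -1.53. Of 17 neocortical markers 7 were higher in the hippocampal formation, and of 7 thalamic markers 3. The largest difference among the hippocampal pools lay between the sets, not between the states. The sets differ in rats and in the number of arrays per pool, and the part of each was not tested. The first principal component of the 6 hippocampal pools held 61.7% of the variance, with the set 1 pools between -33.6 and -20.9 and the set 2 pools between 22.9 and 28.5. The deprived pool of set 1 also held the most choroid plexus signal, a sum of 6320 over 7 markers against 856 to 3764 in the other pools. Counts without it are given for the main test over all probe sets. They are also given for the activity-regulated and glucocorticoid-responsive genes at an unadjusted p under 0.05, and not for the other counts. Set was a block in the test, so that recovery was set against deprivation within each set.

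At the level of single genes no difference passed the main test. Limma's test called 0 of 18625 probe sets at an adjusted p under 0.05, a percentage of 0, and the smallest adjusted p was 0.0862 for a probe set without a gene symbol and 0.127 for a named gene. At an unadjusted p under 0.05, 653 probe sets (3.51%) were higher in recovery and 681 (3.66%) lower. Over 10294 named genes, with 1 probe set for each, the counts were 311 higher (3.02%) and 386 lower (3.75%). These shares are the background for every list below. By sign alone, 4935 of the 10294 were above 0 and 5359 below. The 1334 probe sets of both directions became 813 when the deprived pool of set 1 was left out. Leaving out 1 hippocampal pool at a time gave 0 to 14 adjusted calls: the count was 14 with the set 2 recovery pool left out, 9 with the set 2 deprived pool, 2 with the set 1 deprived pool and 3 with either control pool. The median absolute log2 difference between recovery and deprivation was 0.14 in set 1 and 0.11 in set 2. The 2 arrays of 1 pool differed by a median of 0.14 in the deprived and 0.15 in the recovery pool. These are differences of single arrays, while the set 1 value is one of means of 2 arrays, which vary less. Across the 18625 probe sets the differences of set 1 and set 2, which share no pool, correlated at r = 0.084, a description over probe sets of the same arrays. The log2 differences below are therefore measurements and not calls.

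A fit restricted to the 4 recovery and deprived pools called 43 probe sets (0.231%), 24 higher and 19 lower. That fit has 1 residual degree of freedom and takes most of its estimate of the spread from other probe sets (18.2 prior degrees of freedom). Among its 22 named genes were 6 activity-regulated genes, all higher: Ptgs2 (adjusted p = 0.00152), Bdnf (0.0021), Egr1 and Klf10 (0.0189 each), Nr4a3 (0.0351) and Arc (0.0459). It also called Gpd1 (0.0346), the choroid plexus marker Ttr (0.0126) and the red blood cell gene Hbb (0.0298), all lower, and Ttr differed mainly in set 1 (-1.97 against -0.41 in set 2).

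Activity-regulated genes were the list with the most members higher after recovery sleep. Of 37 genes listed 33 are on the array and 29 passed the filter on dim probe sets, which used the mean of all 12 pools and not the difference between states. Of these 29, 25 were above 0 and 4 below, 18 were higher in both sets (25.2% of all named genes were), and 13 had an unadjusted p under 0.05 in the higher direction and 0 in the lower, against the background of 3.02% and 3.75%. The 13 became 6 when the deprived pool of set 1 was left out and 7 when its recovery pool was. The median log2 difference was 0.24 (0.34 in set 1 and 0.14 in set 2), beside -0.01 over all named genes. In 13 of 29 both recovery pools lay above both deprived pools, against 11.0% of all named genes, and in 12 all 3 recovery arrays lay above all 3 deprived arrays, against 4.37%. In pooled tissue a difference in RNA per cell and a difference in the number of cells that make it cannot be told apart.

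The promoters of these genes are shown for 4 members that were higher in recovery and whose windows hold the site, since the cyclic AMP response element, the binding sequence of the factor CREB, is a known route from firing to transcription. Each window is 300 bases on the strand of the gene, 250 before and 50 after its start, from RefSeq on the build GRCr8. Capitals mark the core site TGACG, or CGTCA where it lies on the other strand, and the full element TGACGTCA. The windows are chr7:134259888-134260187 (plus strand) for Nr4a1, chr4:119607768-119608067 (minus) for Egr4, chr20:21054392-21054691 (minus) for Egr2 and chr9:88256817-88257116 (minus) for Scg2.
Nr4a1: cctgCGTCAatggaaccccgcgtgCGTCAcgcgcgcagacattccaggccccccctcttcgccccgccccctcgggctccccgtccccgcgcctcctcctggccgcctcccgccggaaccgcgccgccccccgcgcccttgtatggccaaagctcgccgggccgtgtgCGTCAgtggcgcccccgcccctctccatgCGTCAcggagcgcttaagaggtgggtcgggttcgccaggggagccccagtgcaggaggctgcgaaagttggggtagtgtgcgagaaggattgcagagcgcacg
Egr4: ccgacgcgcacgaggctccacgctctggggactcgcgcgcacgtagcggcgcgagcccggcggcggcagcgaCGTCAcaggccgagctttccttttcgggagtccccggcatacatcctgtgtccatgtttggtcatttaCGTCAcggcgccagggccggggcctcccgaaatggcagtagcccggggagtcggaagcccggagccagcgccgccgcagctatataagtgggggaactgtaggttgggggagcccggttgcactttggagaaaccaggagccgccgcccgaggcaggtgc
Egr2: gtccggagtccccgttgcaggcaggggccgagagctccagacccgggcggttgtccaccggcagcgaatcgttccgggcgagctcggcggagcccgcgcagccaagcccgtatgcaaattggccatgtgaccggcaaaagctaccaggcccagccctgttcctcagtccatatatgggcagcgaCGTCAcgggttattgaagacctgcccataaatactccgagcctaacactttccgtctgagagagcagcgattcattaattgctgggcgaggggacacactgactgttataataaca
Scg2: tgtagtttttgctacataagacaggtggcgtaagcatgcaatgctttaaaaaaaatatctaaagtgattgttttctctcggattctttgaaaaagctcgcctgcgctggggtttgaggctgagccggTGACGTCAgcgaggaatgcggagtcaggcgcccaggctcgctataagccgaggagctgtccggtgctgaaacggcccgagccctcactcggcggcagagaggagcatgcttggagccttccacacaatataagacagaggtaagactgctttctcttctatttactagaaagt
The Nr4a1 window held 4 core sites, Egr4 2 and Egr2 1, and the Scg2 window held the full element. RefSeq windows were at hand for 23 of the 29 measured genes, and 16 of them (69.6%) held the core site on either strand and 4 (17.4%) the full element, which contains it. Among all 27457 windows at hand the shares were 22% and 1.91%. These include genes not measured here and were not matched to the list in base composition. Of the 13 genes with an unadjusted p under 0.05, 8 had a window. Of those, 6 (75.0%) held the core site and 1 the full element. The windows of Ptgs2 and Bdnf, the members of smallest p, held neither the core site nor the full element. Only 1 window per gene was searched, so any other start of a gene was not read. The motif TGANTCA, the AP-1 site bound by Fos and Jun, was in 0 of the 23 windows and in 7.33% of all, and the E-box CACGTG was in 4 (17.4%) against 6.65%. Outside this list the core site was in 5 of 17 windows of circadian clock and output genes. For the 12 named genes of smallest p in each direction, with 1 sign in both sets, fewer windows were at hand. The core site was in 4 of 9 on the higher side, which includes activity-regulated genes, and in 2 of 5 on the lower. Whether the site goes with the direction of the difference was not tested. These counts describe letters within a short window and not binding.

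Among the transcription factors, Egr1, Egr2, Egr4, Nr4a1, Nr4a3 and Klf10 were higher in recovery in both sets, while Nr4a2 and Jun were not. Egr1, a zinc finger factor linked to plasticity, had signals of 535.1 and 567.9 in the deprived pool of set 1 and 686.9 in that of set 2, against 872.5 and 906.4 and 843.9 after recovery. All 3 recovery arrays lay above all deprived ones, with a log2 difference of 0.49 (SE 0.09, adjusted p = 0.309). Its relative Egr4 was at 47.2, 59.4 and 64.0 in the deprived arrays and 101.0, 87.9 and 81.6 in the recovery arrays, in the same order of arrays, and Egr2 at 31.8, 22.9 and 34.8 against 63.4, 80.6 and 44.7. Both sets of arrays were apart again, by 0.59 (SE 0.16) for Egr4 and 0.88 (SE 0.25) for Egr2. The orphan nuclear receptor Nr4a1 went from 119.2, 103.2 and 121.2 to 155.8, 177.3 and 162.1 (0.50, SE 0.12). Nr4a3 had log2 differences of 0.34 and 0.45 by its brighter probe sets, while Nr4a2 was at -0.07. For the Nr4a3 probe set at 0.45 the states overlapped, with 260.5 in recovery set 2 and 269.2 on 1 array of deprived set 1.

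Fos, the factor most used to mark active neurons, depended on the set. Its signals were 47.2, 55.4 and 86.5 in the deprived arrays and 92.6, 101.9 and 91.3 after recovery. In set 1 recovery was higher by 0.93, and in set 2, where the deprived pool already stood near the recovery level, by 0.08 (0.50 in the mean, SE 0.22, adjusted p = 0.678). Without the recovery pool of set 1 the estimate was -0.01. Klf10, a zinc finger repressor, was higher in both sets, with 140.3, 122.7 and 153.0 against 278.4, 274.9 and 195.2 (0.71, SE 0.18). Junb was at 0.25 and Jun at 0.02 by its brightest probe set.

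The effectors of this programme included the list's members of smallest p. Ptgs2, which encodes the inducible cyclooxygenase that neurons make on strong synaptic input, had signals of 194.9, 178.3 and 249.3 in deprivation and 370.4, 359.0 and 364.8 in recovery. The 3 recovery arrays were close together and all lay above the deprived and the home cage arrays (193.3, 212.3 and 243.6), a 1.69-fold difference (log2 0.76, SE 0.11, adjusted p = 0.127). Bdnf had 157.0, 165.1 and 118.0 in deprivation and 228.3, 288.9 and 199.8 in recovery, with 169.7, 165.1 and 121.1 in the home cage. Deprived and home cage arrays overlapped for Bdnf and recovery was higher in both sets, by 0.67 and 0.76 (mean 0.72, SE 0.11, adjusted p = 0.18). A second, dim Bdnf probe set with signals between 17.9 and 34.3 gave 0.17.

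Arc, whose protein removes AMPA receptors from synapses, went from 115.1, 86.8 and 101.6 to 140.8, 149.5 and 148.1. It was higher by 0.54 in each set (SE 0.10, adjusted p = 0.309). Secretogranin II (Scg2), a precursor stored in dense core vesicles, was higher by 0.22, the signalling regulator Rgs2 by 0.25 and neuritin (Nrn1), a secreted growth factor of neurites, by 0.14. Homer1, a postsynaptic scaffold gene with a short activity-induced form, was at 0.06 by its brightest probe set and at 0.65 and 0.67 by 2 others, which were high in set 1 (1.43 and 1.36) and not in set 2 (-0.13 and -0.01). The phosphatase gene Dusp1 (-0.19) and the clock gene Per1 (-0.17), which glucocorticoids also induce, were the lowest members.

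**Figure D1:**
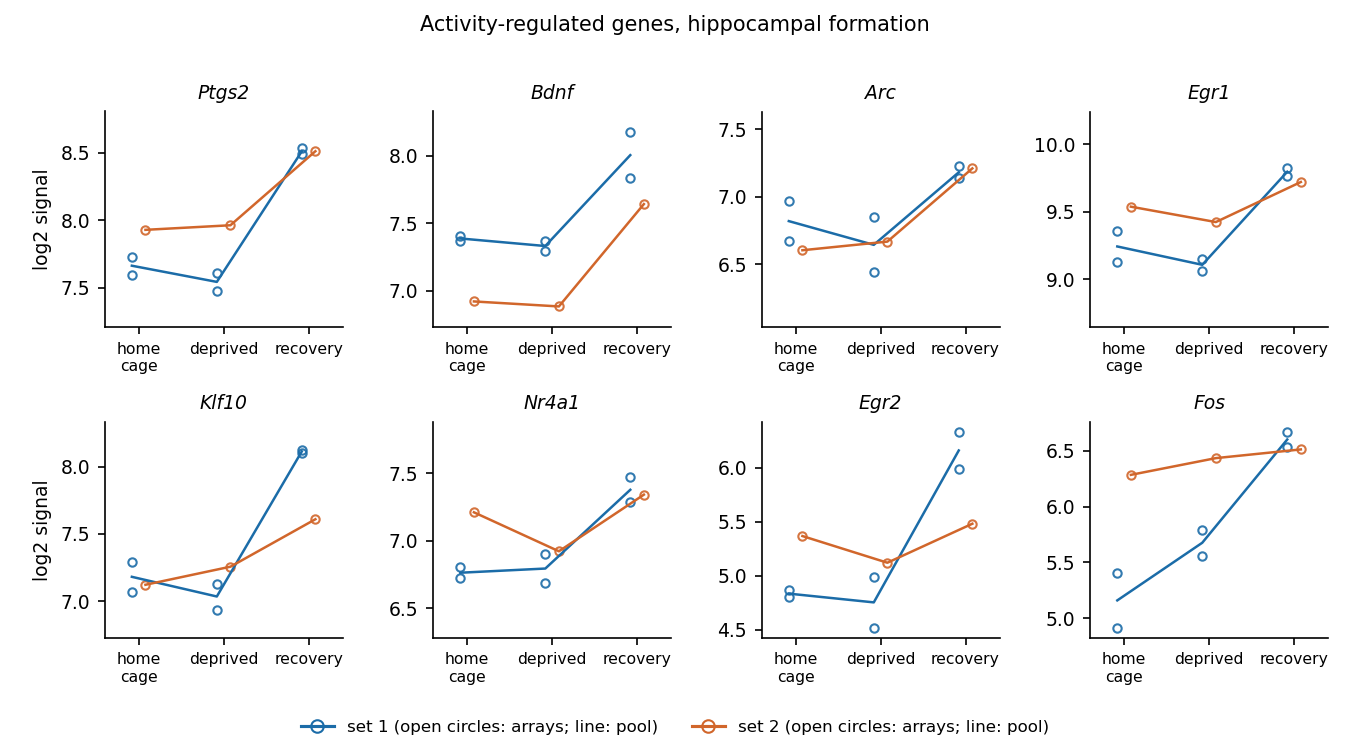
Signal (log2) of 8 activity-regulated genes in the hippocampal formation, with the state on the horizontal axis. Open circles are arrays and lines join the pools of set 1 (blue) and set 2 (orange). For Ptgs2, Bdnf, Arc and Egr1 the recovery pools lie above the deprived and home cage pools in both sets, while Fos in set 2 is level.

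Set beside the home cage, the activity-regulated list was near its control level after deprivation and above it after recovery. In neither contrast did a probe set pass at an adjusted p under 0.05; at an unadjusted p under 0.05, 3.47% of probe sets were higher and 2.46% lower in deprivation than in the home cage, and 3.77% and 3.54% in recovery. The medians of the list were 0.04 for deprived minus control and 0.30 for recovery minus control, with 28 of 29 above 0 in the latter. These values share pools with each other and are given side by side. Ptgs2 stood at -0.04 and 0.72, Bdnf at -0.05 and 0.67, Egr1 at -0.12 and 0.37 and Arc at -0.06 and 0.48 for deprivation and recovery against control. Dusp5 was already 0.45 above control in deprivation and 0.69 after recovery.

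In the neocortex of the same rats the recovery minus deprived differences of these genes were mostly in the other direction. There 20 of 29 were below 0 and 9 above, with a median of -0.12, while 4906 of all 10294 named genes were below 0. At an unadjusted p under 0.05, 7 of the 29 were lower (background 2.21%) and 3 higher (1.82%). The difference between the structures was tested within the animal pools. Hippocampal minus neocortical values were above 0 for 27 of 29, with a median of 0.35, and for 4804 of all 10294 named genes. At an unadjusted p under 0.05, 13 of the 29 were higher and 0 lower, against 2.82% and 1.98% of all named genes. No probe set of 18625 passed at an adjusted p under 0.05 in that test (smallest 0.775), while 779 were higher (4.18%) and 349 lower (1.87%) in the hippocampal formation at an unadjusted p under 0.05. In the neocortex alone 1 probe set passed at an adjusted p under 0.05 (0.00537%). It was that of Arc, with a recovery minus deprived value of -0.91 (limma, adjusted p = 0.0309). At an unadjusted p under 0.05, 1.61% of probe sets were higher there and 2.95% lower.

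Arc had the widest gap of the list: 0.54 in the hippocampal formation and -0.91 in the neocortex, a difference of 1.45 (SE 0.12, unadjusted p = 5.6e-05, adjusted p = 0.775). Gadd45b, a DNA repair and demethylation factor, differed by 1.11 (SE 0.30), Klf10 by 1.03 (SE 0.11) and Fos by 0.97 (SE 0.30). Scg2 and Rgs2 were higher in both structures, by 0.34 and 0.25 in the neocortex. Bdnf was at 0.31 there and Ptgs2 at 0.16.

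**Figure D2:**
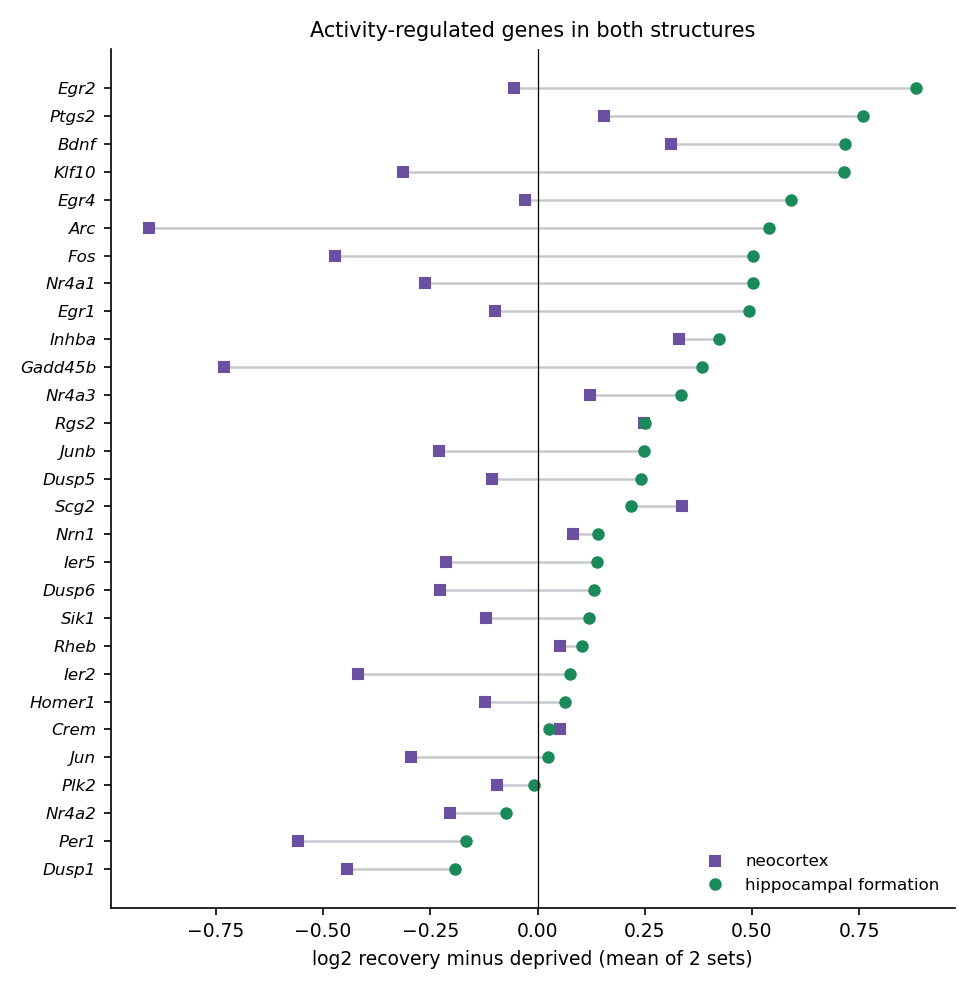
Recovery minus deprived (log2, mean of 2 sets) of the 29 measured activity-regulated genes in the hippocampal formation (circles) and neocortex (squares), ordered by the hippocampal value. The hippocampal value is the higher one for 27 genes, with the widest gap at Arc (0.54 against -0.91).

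Glucocorticoid-responsive genes were mostly lower in recovery than in deprivation. Of 25 genes listed 22 were measured, and 16 were lower in recovery than in deprivation, 13 of them in both sets (28.8% of all named genes were). The median was -0.18 (-0.22 in set 1 and -0.09 in set 2). At an unadjusted p under 0.05, 5 were lower (22.7%, background 3.75%) and 1 was higher (background 3.02%), and in 7 both recovery pools lay below both deprived pools (background 12.9%), and in 5 all recovery arrays lay below all deprived arrays (background 5.40%). Fitting no block for set gave a count of 2 in place of 5, and leaving out the set 1 deprived pool also gave 2. Against the home cage the medians were 0.21 in deprivation and 0.14 in recovery.

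Gpd1, the cytosolic glycerol-3-phosphate dehydrogenase that glucocorticoids induce in glia, had the smallest p of the list. Its signals were 217.6, 218.9 and 253.6 in the home cage, 378.0, 371.9 and 414.5 in deprivation and 306.1, 283.2 and 290.1 in recovery. The recovery arrays lay between the other states without overlap, 0.43 below deprivation (SE 0.10, adjusted p = 0.412) and 0.31 above control. A dimmer Gpd1 probe set was lower by 0.42. Sgk1, a kinase that regulates ion channels, went from 468.7, 512.6 and 511.6 to 898.7, 874.4 and 690.4 and then to 653.7, 640.7 and 622.5. Its recovery arrays again lay between the states in both sets, 0.30 below deprivation (SE 0.11) and 0.34 above control.

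Other members followed with their own levels. Ddit4, an inhibitor of the growth kinase mTOR, was lower in recovery by 0.27 (SE 0.10), glutamine synthetase (Glul) by 0.21 and Angptl4, an inhibitor of lipoprotein lipase, by 0.47 (SE 0.15). The other Glul probe sets gave -0.01 and -0.09. Pdk4, which restrains pyruvate oxidation, was 0.93 above control in deprivation and 0.49 lower in recovery, with most of the latter in set 1 (-0.90 against -0.09). Tsc22d3 and Fkbp5, direct receptor targets, were lower by 0.18 each, and a dimmer Fkbp5 probe set was at 0.04. The metallothionein gene Mt2A was 0.32 above control in deprivation and 0.38 in recovery. The mineralocorticoid receptor gene Nr3c2 was higher by 0.25 and the glucocorticoid receptor gene Nr3c1 by 0.12. In the neocortex 19 of the 22 were lower in recovery, with a median of -0.23 and 10 at an unadjusted p under 0.05 (background 2.21%), so both structures had this direction.

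**Figure D3:**
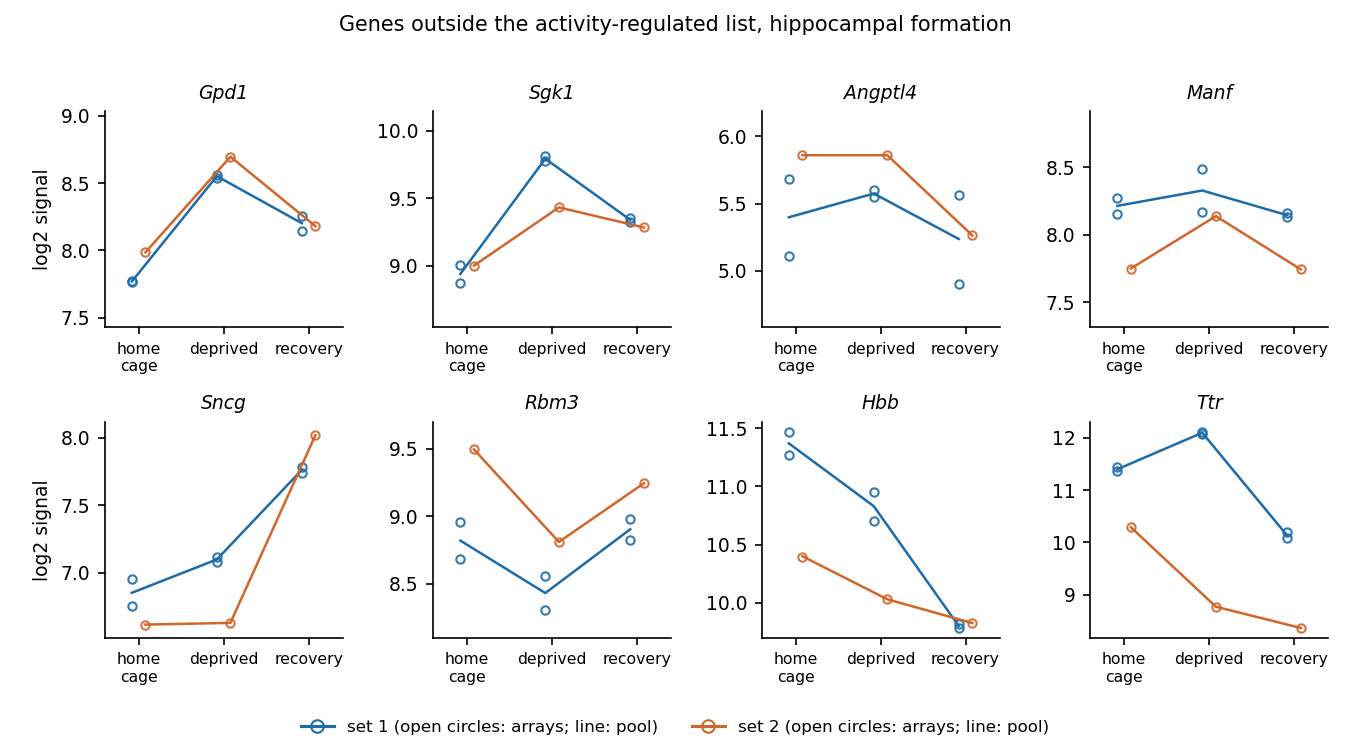
Signal (log2) of 8 genes in the home cage, deprived and recovery hippocampal formation, drawn as open circles for arrays and lines for the pools of set 1 (blue) and set 2 (orange). Recovery lies between the other states for Gpd1 and Sgk1, returns toward the home cage level for Rbm3, exceeds both for Sncg, and for Hbb lies below both.

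Chaperones of the endoplasmic reticulum, which fold secreted proteins, had small differences, mostly lower in recovery. Of 21 measured, 15 were lower in recovery, 13 in both sets, and 3 had an unadjusted p under 0.05 in the lower direction. The median was -0.07 against 0.09 for deprivation minus control. Manf, a secreted protein of this stress response, had 288.4, 358.3 and 281.6 in deprivation and 285.9, 280.2 and 214.2 in recovery (-0.29, SE 0.09). Sdf2l1 was lower by 0.26 and Hsp90b1 by 0.15, and they stood at -0.02 and 0.02 against control.

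Among the genes of the circadian clock and its outputs 12 of 20 were lower, with a median of -0.09, and only Hlf, an output transcription factor, had an unadjusted p under 0.05. Its 3 probe sets gave -0.31, -0.33 and -0.29. Per2 was at 0.12 and Dbp at -0.09, and the hour of death did not differ between states. The E-box was in 3 of 17 clock gene windows (17.6%).

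Neuropeptides and trophic factors had 5 of 24 members at an unadjusted p under 0.05, all higher, 2 of which (Bdnf and Scg2) belong to the activity-regulated list too. Somatostatin (Sst), the peptide of a class of dendrite-targeting interneurons, stood at 506.6, 501.3 and 503.8 in the home cage, 356.7, 385.7 and 334.8 in deprivation and 405.5, 441.7 and 383.2 in recovery. It was 0.52 below control in deprivation and 0.19 higher in recovery (SE 0.07), so that recovery stood 0.32 below control. Vgf, a neurotrophin-induced precursor, was higher by 0.31 and neurotensin (Nts) by 0.31. Crh, corticotropin-releasing hormone, lay near the filter level, with signals of 12.5 to 34.7.

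Receptors, channels and release genes showed single members and no common direction. Of 12 AMPA, NMDA and kainate receptor subunits 0 had an unadjusted p under 0.05 and the median was 0.03, with Gria1 at 0.26. Gad2, the enzyme that makes GABA at terminals, was higher by 0.45 (SE 0.14), with 84.0, 87.0 and 100.1 against 139.8, 123.9 and 121.5, while it was at -0.35 in the neocortex (difference 0.80, SE 0.14, adjusted p = 0.775). Presynaptic genes divided: the calcium sensor Syt1 was higher by 0.27, and Vamp2, Stx1a and Bsn, of the fusion machinery and the active zone, were lower by 0.30, 0.28 and 0.22. The potassium channel subunit gene Kcnv1 was higher by 0.31 and the calcium channel subunit gene Cacnb4 by 0.40. The noradrenaline receptor gene Adra2a was lower by 0.61 (SE 0.16), with 72.6, 69.2 and 72.9 against 33.0, 44.1 and 58.1, and the serotonin receptor gene Htr1a higher by 0.47.

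Genes of general metabolism and protein synthesis had medians near 0. Of 46 respiratory chain and ATP synthase genes 0 had an unadjusted p under 0.05 (median -0.01). Of 39 ribosomal protein genes 29 were lower, 17 in both sets, with a median of -0.04 and 1 at an unadjusted p under 0.05. Of 41 translation factors 20 were above 0 and 21 below, and 2 had an unadjusted p under 0.05, Eif3b (0.22) and Eif4e (0.16). Sterol and fatty acid synthesis genes had a median of 0.04, with Mvd at 0.35, and interferon-response and inflammation genes one of 0.01, with Irf9 at 0.29.

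**Figure D4:**
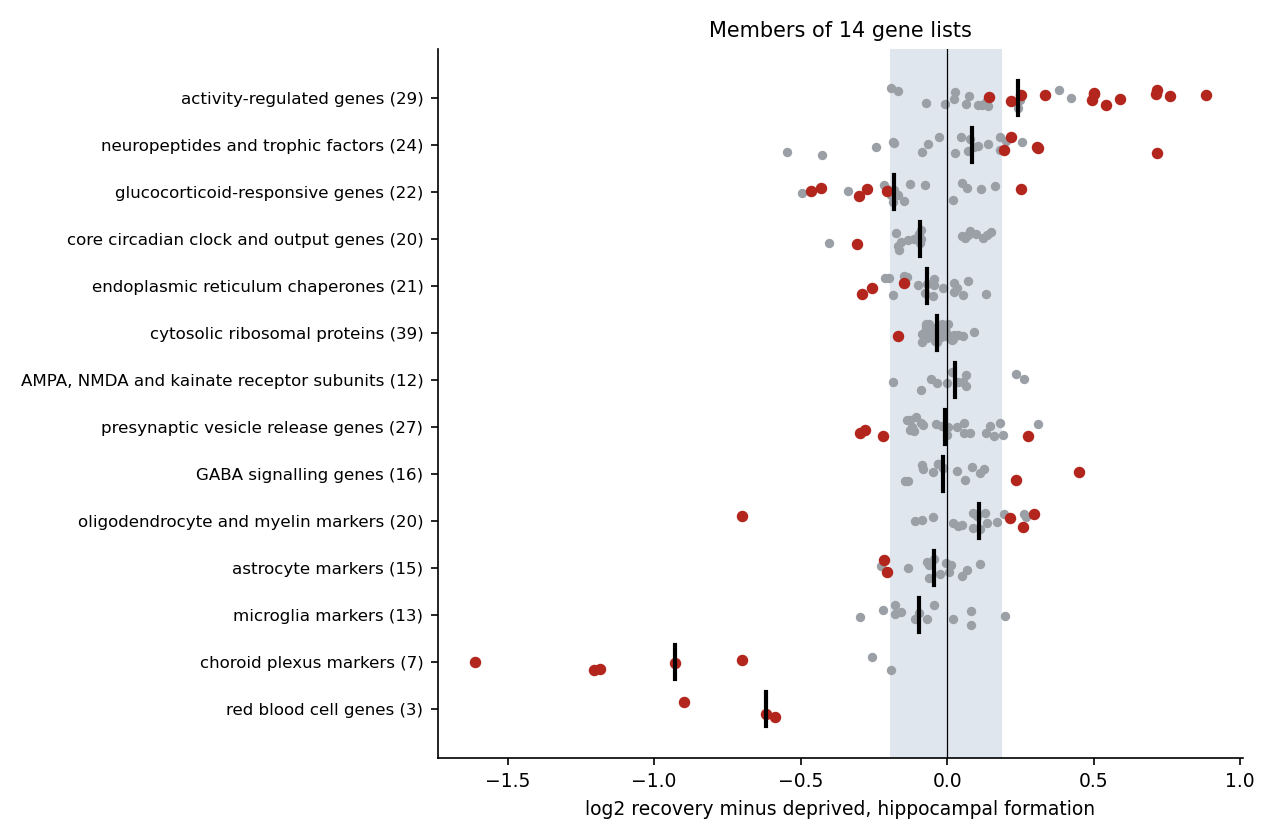
Recovery minus deprived (log2) of the members of 14 gene lists in the hippocampal formation, with the number measured in brackets. Red points have an unadjusted p under 0.05, black bars are list medians and the shaded band holds the middle 80% of all named genes. The activity-regulated median is 0.24 and the glucocorticoid-responsive one -0.18, while the choroid plexus and red blood cell genes lie furthest to the left.

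Markers of tissue next to the hippocampal formation moved with the comparison in set 1. The 7 measured markers of choroid plexus, the epithelium that makes cerebrospinal fluid (of 14 listed, 12 on the array), were all lower in recovery, with a median of -0.93, which was -1.63 in set 1 and -0.14 in set 2. Their summed signal was 6320 in the deprived and 1851 in the recovery pool of set 1, 1000 and 856 in those of set 2, and 3764 and 1966 in the home cage. None of the 7 was at 0. Transthyretin (Ttr), the defining marker, had signals of 4444.7, 4329.1 and 436.3 in deprivation and 1079.2, 1169.2 and 329.1 in recovery (-1.19, SE 0.52). The deprived pool of set 1 thus stood far above all others for Ttr and set 2 did not.

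Meningeal and fibroblast markers gave -0.48 in set 1 and 0.24 in set 2 (median -0.07 over 18 genes), with summed signals of 4124 and 2829 in deprivation and 2689 and 3505 in recovery. Oligodendrocyte and myelin markers were higher in 16 of 20, with a median of 0.11 that came from set 1 (0.23 against -0.04). Opalin and Ugt8, made by mature oligodendrocytes, were higher by 0.30 and 0.26. The lowest of that list, Enpp2 (-0.70), is also a choroid plexus marker.

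Red blood cell genes were lower in recovery in both sets. The haemoglobin genes Hbb and Hba-a3 and the haem synthesis gene Alas2 had log2 differences of -0.62, -0.59 and -0.90. Hbb signals were 2834.7, 2474.4 and 1348.4 in the home cage, 1666.5, 1983.5 and 1048.9 in deprivation and 901.0, 881.6 and 907.5 in recovery. Each state lay below the one before it within each set, and the median was -0.55 for deprivation and -1.19 for recovery against control. In the neocortex the median for recovery against deprivation was -0.85. The part of these cell types in the differences of the neuronal and glucocorticoid lists was not tested. In set 2, where the summed choroid plexus signal differed less, the median was 0.14 for activity-regulated and -0.09 for glucocorticoid-responsive genes.

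Across all named genes, those with the smallest p and the same direction in both sets were led on the higher side by Phf20, Ptgs2, Bdnf, Sncg, Rbm3, Arc, Klf7, Egr1, Nckap5l, Nr4a3, Zeb1 and Btbd3, 5 of which are activity-regulated. Gamma-synuclein (Sncg), a presynaptic protein, had 139.0, 135.3 and 99.0 in deprivation and 214.3, 220.2 and 259.7 in recovery. It was 2.04-fold higher (log2 1.03, SE 0.17, adjusted p = 0.249), above the home cage by 1.16, and 1.10 higher in the neocortex. The difference between the structures was -0.07 (SE 0.17, adjusted p = 0.982), and without the deprived rats of set 1 it was 0.11.

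Rbm3, a cold-inducible RNA-binding protein linked to synapse maintenance, had its lowest mean in deprivation and a mean near control in recovery. Its signals were 497.2, 410.8 and 722.0 in the home cage, 377.3, 315.8 and 448.7 in deprivation and 506.1, 453.7 and 606.8 in recovery. Deprivation was the lowest state in both sets, while recovery stood above control in set 1 and below it in set 2. In the mean of the sets deprivation stood 0.54 below control, recovery 0.45 above deprivation (SE 0.08, adjusted p = 0.309) and 0.08 below control. In the neocortex recovery was 0.30 above deprivation. Btbd3, which orients dendrites, was also lowest in deprivation, with -0.42 for deprivation against control and 0.48 for recovery against deprivation, although its brighter probe set gave 0.07.

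Several of these single-gene values rest on 1 probe set of several. Phf20, a reader of histone methylation, was higher by 0.80 (adjusted p = 0.127) by a probe set with signals of 35.9 to 146.0, while its 3 other probe sets gave -0.05, -0.12 and -0.22. By the first of these probe sets the set 1 recovery pool (log2 6.16) lay below the set 2 deprived pool (6.21). Nckap5l was at 1.05 and at -0.36 by its other probe set. Klf7 was at 1.14 from signals of 23.7 to 66.0, near the filter level of 19.7, and its second probe set gave 0.84 in set 1 and -0.01 in set 2.

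The lower side held Vwa8, Caskin1, Ythdf1, Tacc1, Cdk5rap3, Khsrp, Orc4, Gpd1, Camk2d, Zfp703, Mfhas1 and Cit. Caskin1, a synaptic scaffold, had 118.4, 138.3 and 110.8 in deprivation and 67.9, 70.9 and 76.9 in recovery. All its recovery arrays were below all deprived and home cage arrays (-0.70, SE 0.14, adjusted p = 0.309). Ythdf1, a reader of methylated adenosine that promotes translation, was lower by 0.40, Tacc1, a microtubule-associated protein, by 0.42 and the calcium-dependent kinase gene Camk2d by 0.33. Second probe sets gave 0.05 for Ythdf1 and 0.15 for Camk2d, and -0.13 and -0.15 beside -0.72 for Vwa8. Cdk5rap3 was at -0.86, but the recovery arrays of 1 pool read 11.5 and 67.5, which is wider than the difference.

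**Figure D5:**
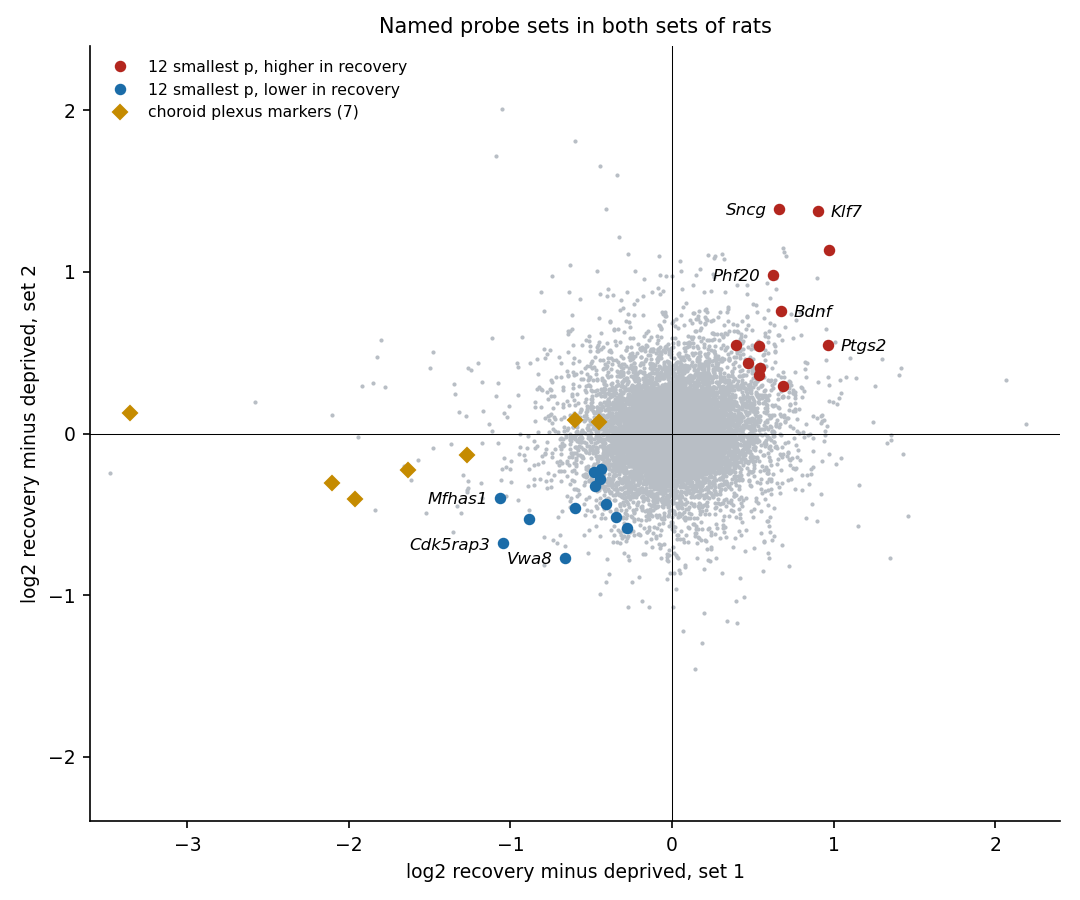
Recovery minus deprived (log2) in set 1 (horizontal) and set 2 (vertical) for the 14113 named probe sets (grey) of the hippocampal formation. Red and blue mark the 12 genes of smallest p in each direction and yellow diamonds the 7 choroid plexus markers, which differ mainly in set 1.

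Whether recovery reversed the effect of deprivation across all genes was read between the sets, because deprived minus control and recovery minus deprived of the same set share the deprived pool. The 100 named probe sets highest after deprivation in set 1 (median 0.96) had a median recovery difference of -0.05 in set 2, with 60 of 100 lower. The 100 lowest in set 1 (median -0.78) had one of 0.09, with 63 higher. Read the other way round the signs differed: the 100 highest in set 2 (median 0.76) had a median of 0.02 in set 1, with 46 lower, and the 100 lowest (median -0.87) one of -0.06, with 44 higher. Without the filter on dim probe sets the 100 highest of set 1 had a median of 0.08 in set 2, and the 100 highest and lowest of set 2 had medians of 0.14 and 0.41 in set 1. Over all 14113 probe sets 50.2% were lower in set 2 and 49.4% in set 1.

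Few genes were extreme after deprivation in both sets. Cmip, Fkbp10, Phf20 and Tmc6 were among the 100 lowest in each set, and their recovery differences ranged from 0.38 to 0.98 over both sets. Col15a1, Foxq1, Gpatch4, Mga and Nom1 were among the 100 highest in each. The collagen gene Col15a1 was 1.66 and 1.13 above control in deprivation and its recovery differences were -0.44 and -0.99. Gpatch4 had 2.41 and 1.44 and then -0.37 and -0.38, which left recovery well above control (mean log2 signal 5.01 against 3.46). Nom1 was at -0.56 and 0.01. All but Phf20 and Mga had a mean log2 signal under the filter level of 4.3 in at least 1 state. The deprived pools of both sets took part in choosing these 9 genes, and recovery minus deprived subtracts the same pools, so their recovery values are a description whose direction the choice favours.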

How the data were processed

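RNA pools of rat hippocampal formation and neocortex were measured on Affymetrix 3' expression arrays. The deposited intensity values are linear probe set signals made by the authors with MAS5, per the submitters' processing notes; its version and settings are not given in the sources used here. All hippocampal arrays have a trimmed mean of 100. Values below 1 were set to 1 and log2 was taken. The 2 arrays of set 1 in each state were averaged, and the dimmest 40% of 31042 probe sets were left out. Of the 18625 kept, 14113 carry 1 gene symbol.

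Limma 3.58.1 (R 4.3.3; lmFit, eBayes with trend, Benjamini-Hochberg adjustment) was fitted to 12 pools with 6 group means and set as a block within each structure. The labels give the set: the same number marks the first or second 6 rats of each state, and set 1 pools deviated from their group means together (correlations of 0.61 to 0.68). Different rats make up each state, so the numbers pair sets and not animals. The hippocampal minus neocortical difference was fitted on 6 animal pools. P-values measure the spread between pools that is left after the difference between the sets is removed. Without the block, limma gave a smallest adjusted p of 0.9999. It then had 301 probe sets at an unadjusted p under 0.05, against 1334 with the block. In the main fit the spread is what is left over hippocampal and neocortical pools together, with 4 residual degrees of freedom. Each probe set therefore has the same SE in both structures, which is not the spread of the hippocampal pools alone. That fit treats the structures as independent, although they came from the same rats. The estimates of the fit were checked on data simulated from the fitted model with known changes. The simulated noise was independent between pools, so that check cannot show whether the p-values hold for the real pools.

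The members and lists were chosen with earlier results of these data known. Named genes were the 12 of smallest p in each direction with 1 sign in both sets, the 3 of smallest p in each list, and Arc, Fos, Egr1, Bdnf, Gpd1, Sgk1, Per1, Hbb and Ttr. Other list members, and the promoters printed, were chosen after their values were seen. Each gene is represented in its list by its brightest probe set. Alternatives covered the block, the pools fitted, floor, filter, normalization, technical arrays and left-out pools.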

Additional observations from a re-analysis of the deposited data

How the results depend on the processing

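Of 1989 alternative values for 118 named probe sets, 1874 kept their direction and side of the threshold and 19 changed sign. Against 0 calls, 43 were made with only the 4 compared pools, 2 with technical array 2 of set 1 only, and 2383 with all arrays and the pool as a random block, where the estimated correlation within pools was -0.55; leaving out 1 hippocampal pool gave 0 to 14. The 1334 probe sets of unadjusted p under 0.05 became 301 with no replicate block, 2182 with no filter, 5530 with the random block and 813 to 1780 with 1 pool left out. The activity-regulated count of 13 became 20 with the random block and 6 to 15 with 1 pool left out. The glucocorticoid count of 5 became 2 with no replicate block, 11 with the random block and 2 to 7 with 1 pool left out. The 1128 of the structure difference became 497 with no replicate block and 1721 with no filter. The reversal medians were 0.0762 (no filter) and 0.0082 (technical array 1) for the highest of set 1, 0.142 (no filter), 0.0748 (technical array 1) and -0.0466 (technical array 2) for the highest of set 2, and 0.409 (no filter) for the lowest of set 2. Within 1 set the list medians were -0.0955 to -0.0408 for clock, -0.219 to -0.0927 for glucocorticoid-responsive and -0.0716 to -0.0365 for chaperone genes. Signs turned for Sox10 (-0.106), Per1 (0.0531), Grm2 (0.0226) and Drd2 (0.195) with technical array 2, and for Drd2 (0.0977) with a floor of 16. With 1 pool left out in turn, values with both signs were given by Igf2 (-1.32 to 0.233), Nfil3 (-0.894 to 0.0851), Hspa4 (-0.406 to 0.0501), Pdgfra (-0.129 to 0.0164), Grm2 (-0.152 to 0.0098), Grm8 (-0.189 to 1.45), Grm5 (-0.479 to 0.262), the dim Bdnf probe set (-0.0188 to 0.358), Per1 (-0.386 to 0.0510), Fos (-0.0141 to 1.02) and the structure difference of Sncg (-0.252 to 0.110). Where fewer genes or pools were fitted the alternative's construction differs. The random block fit takes the 2 arrays of a set 1 pool as separate values. Its correlation of -0.55 does not discount them as repeats of 1 pool, so its counts do not rest on independent pools alone. Otherwise the cause was not tested. Each state has 2 pools, and a lone pool left after leaving one out is assumed to vary like the other groups.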
